A study of Mus musculus with 2 samples.

Results

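The genes described here are 44 components of innate sensing and of the interferon response, namely receptors, sensors, adaptors, kinases, transcription factors and interferon-induced effectors. They were chosen as a fixed list of symbols, and all 44 have a row in a bulk RNA-seq count table of 31017 genes. The table holds 2 libraries of TUBO, a mouse mammary carcinoma line derived from a tumour of a BALB/c female with rat Her2/neu as a transgene. Neither library was treated, culture was on plastic, and there is 1 group (n = 2) and no condition is compared. The labels do not say whether the libraries came from separate cultures, so the spread between them may be technical. Values after ± are SDs over both libraries.

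Cells detect foreign or misplaced nucleic acids with Toll-like receptors in endosomes and with cytosolic helicases of the RIG-I family. Toll-like receptors at the surface detect other microbial products, such as bacterial lipopolysaccharide. The helicases and some of the Toll-like receptors signal through adaptor proteins to the kinases TBK1 and IKK-epsilon, which activate interferon regulatory factors and the transcription of interferon genes. Secreted interferon acts on receptors that are present on most cell types, and JAK kinases, STAT proteins and IRF9 then switch on interferon-stimulated genes, many of which block steps of viral replication. Several sensors are themselves interferon-stimulated, so sensing and response are wired in a loop.

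The libraries held 35453278 counts in replicate 1 and 34098259 in replicate 2. A level in CPM is a count per 1000000 counts of the scaled library total. A level in TPM is also divided by the gene's exonic length and is the scale on which different genes are compared. Detection required at least 1 CPM in each library. Where no read was counted, the level can still be as high as 3 counts' worth, which was 0.0842 CPM in replicate 1 and 0.0885 in replicate 2, for counting error only. All 8 mammary epithelial markers were detected, with a summed level of 5658 ± 106 CPM. Of 12 leukocyte markers, 1 was detected (Fcer1g, 1.27 ± 0.167 CPM). The summed leukocyte level was 1.77 CPM in replicate 1 and 1.92 CPM in replicate 2, and 8 of the 12, among them Ptprc, Adgre1 and Cd3e, had no count in either library. None of 5 fibroblast and 4 endothelial markers was detected.

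Interferon-stimulated genes are switched on through a short promoter element whose core was searched here on both strands as GAAA, any 2 bases (NN) and GAAA again. RefSeq promoters (GRCm38.p6, 250 bases before to 50 after the start) were found for 37 of the 44 genes. Some genes had several, and a sequence was counted as held where any promoter of the gene matched. The core occurred in 13 of these 37 (35.1%), against 1079 of all 27025 genes with such a promoter (3.99%). Among the effectors 8 of 11 genes with a promoter held it, and among the other members 5 of 26. The sequences below are shown because they carry the same core while their genes differ in level, and were picked with those levels known. Isg15, Ifit1 and Ifit3 were not detected, whereas Bst2, Ddx58 and Eif2ak2 were. Each runs 5′ to 3′ on the gene's strand, and capitals mark the core or its reverse complement.
Isg15 promoter, chr4:156200769-156201068, minus strand: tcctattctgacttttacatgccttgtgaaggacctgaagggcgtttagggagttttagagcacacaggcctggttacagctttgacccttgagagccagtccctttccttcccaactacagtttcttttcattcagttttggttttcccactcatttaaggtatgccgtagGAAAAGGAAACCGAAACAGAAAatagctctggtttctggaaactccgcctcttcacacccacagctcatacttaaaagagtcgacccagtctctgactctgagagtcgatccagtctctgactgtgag
Ifit1 promoter, chr19:34640639-34640938, plus strand: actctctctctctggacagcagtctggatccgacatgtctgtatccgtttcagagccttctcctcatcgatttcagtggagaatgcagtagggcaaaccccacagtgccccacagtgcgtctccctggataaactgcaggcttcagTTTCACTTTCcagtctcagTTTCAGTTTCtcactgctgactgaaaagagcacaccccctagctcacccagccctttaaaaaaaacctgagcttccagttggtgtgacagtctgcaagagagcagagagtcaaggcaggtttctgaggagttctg
Ifit3 promoter, chr19:34583279-34583578, plus strand: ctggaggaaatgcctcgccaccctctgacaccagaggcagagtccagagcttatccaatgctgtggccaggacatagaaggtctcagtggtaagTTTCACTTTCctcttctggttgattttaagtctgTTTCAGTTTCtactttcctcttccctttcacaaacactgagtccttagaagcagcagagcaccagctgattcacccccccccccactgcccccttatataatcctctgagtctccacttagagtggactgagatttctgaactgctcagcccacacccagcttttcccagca
Bst2 promoter, chr8:71537423-71537722, minus strand: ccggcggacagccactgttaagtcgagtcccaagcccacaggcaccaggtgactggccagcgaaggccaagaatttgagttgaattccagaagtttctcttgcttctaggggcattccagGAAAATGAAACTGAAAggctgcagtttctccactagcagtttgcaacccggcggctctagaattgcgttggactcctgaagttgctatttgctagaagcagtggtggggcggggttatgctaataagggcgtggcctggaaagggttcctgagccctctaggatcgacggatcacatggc
Ddx58 promoter, chr4:40239776-40240075, minus strand: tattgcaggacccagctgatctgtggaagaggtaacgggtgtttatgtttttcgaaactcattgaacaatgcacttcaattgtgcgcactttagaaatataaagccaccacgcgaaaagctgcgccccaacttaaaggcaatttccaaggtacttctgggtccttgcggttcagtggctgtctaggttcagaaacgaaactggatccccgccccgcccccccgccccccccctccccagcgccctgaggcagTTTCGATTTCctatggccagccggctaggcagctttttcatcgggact
Eif2ak2 promoter, chr17:78882523-78882822, minus strand: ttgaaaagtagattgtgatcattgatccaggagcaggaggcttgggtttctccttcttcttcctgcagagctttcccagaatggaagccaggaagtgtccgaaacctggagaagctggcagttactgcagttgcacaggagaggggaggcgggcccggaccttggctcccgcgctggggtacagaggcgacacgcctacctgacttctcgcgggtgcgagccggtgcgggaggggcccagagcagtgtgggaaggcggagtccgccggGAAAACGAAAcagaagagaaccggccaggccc

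In the Isg15 promoter, 3 overlapping cores formed a run of 22 bases whose first base lay at position -78 from the RefSeq start. Ifit1 held cores at -104 and -85, and Ifit3 at -156 and -122. Bst2 held a run of 16 bases with 2 overlapping cores at -130. In Ddx58 and Eif2ak2 the core lay after the start, at +3 and +19, as it also did in Ifih1 at +33. The remaining members with a core were Irf2 at -241, Rsad2 at -120, Tlr6 at -116, Oas3 at -75, Myd88 at -40 and Oas1a at -20. The core was held by 7 of 26 detected members and by 6 of 11 others with a promoter. Over all genes of the table with a promoter it was held by 3.40% of the detected and 4.49% of the others. It was therefore present in genes with and without a detected level, as the map of cores beside the levels shows. A match is a string of letters, and binding was not measured.

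**Figure D1:**
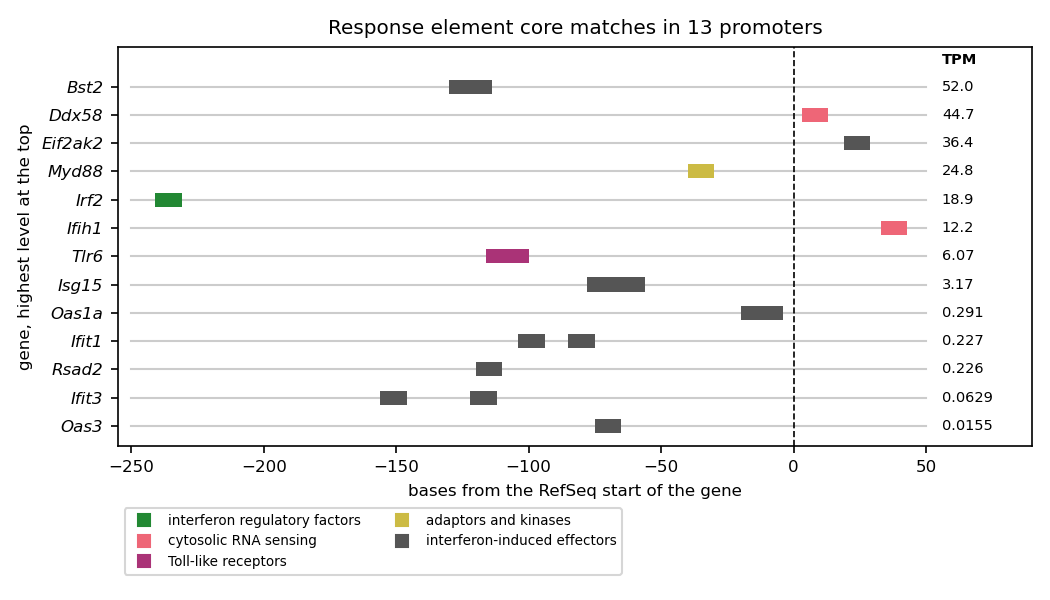
Position of each response element core (GAAA, NN, GAAA, either strand) relative to the RefSeq start in bases, for the 13 members that hold a core, with the mean TPM of the gene (n = 2) at the right. Isg15, Ifit1, Ifit3, Oas1a, Oas3 and Rsad2 hold cores before the start and were not detected, while Bst2, Irf2, Myd88 and Tlr6, also with cores before it, and Ddx58, Eif2ak2 and Ifih1, with cores after it, were.

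The gamma-activated site, a promoter element of genes that interferon-gamma induces, was searched as TTCNNNGAA, which reads the same on both strands. It occurred in 14 of 37 members (37.8%), against 9.55% of all genes with a promoter. It was held by 12 of 26 detected members and 2 of 11 others. In the 200 bases before the start alone it occurred in 6 of 37 members (16.2%), against 6.38% of all genes. Of these members, 5 were among the 26 detected and 1 among the 11 others. There the shares over all detected and all other genes were 5.48% and 6.79%. Whether either element goes with detection was not tested. Detected members had a median of 14.5 CpG pairs in the 300 bases and the other members 6, against 23 in all detected genes and 4 in all other genes. A member with several promoters entered with the promoter that had the most CpG pairs.

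Of the 44 members, 28 (63.6%) were detected, against 37.7% of all genes in the table and 50.6% of those annotated as protein-coding. All 44 members are protein-coding, so the second share is the closer comparison. Both libraries lacked a count for 2 members (Irf4 and Tlr9), against 41.0% of all genes. The other 14 had counts below the minimum. Together the members held 36127 counts in replicate 1 and 33781 in replicate 2, a summed level of 1005 ± 12.4 CPM. Their levels covered the range from no count to 135 ± 4.35 CPM for Tlr3. In a bulk library a low level in many cells and a high level in few cells cannot be told apart.

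**Figure D2:**
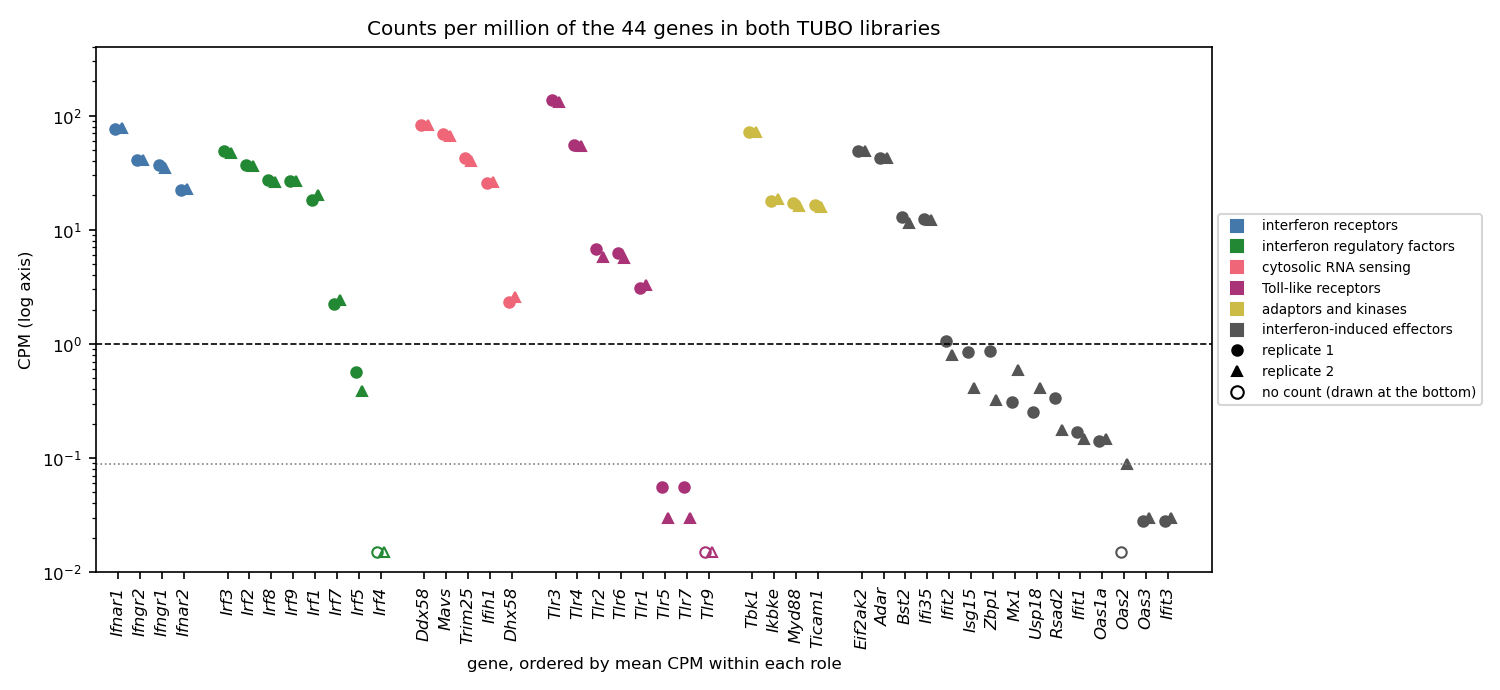
Level of each of the 44 members in CPM on a log axis, by role, with circles for replicate 1 and triangles for replicate 2. The dashed line is the 1 CPM minimum, the dotted line the worth of 3 counts (0.0885 CPM in replicate 2) and open symbols at the bottom stand for no count. All interferon receptor, cytosolic RNA sensing, adaptor and kinase genes lie above the minimum. So do 5 of 8 Toll-like receptors and 6 of 8 interferon regulatory factors, while 11 of 15 effectors do not.

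The role groups differed in level. Of the 29 members other than effectors, 24 were detected, whereas 4 of the 15 interferon-induced effectors were. The genes under the minimum among the 29 were 3 Toll-like receptors and 2 interferon regulatory factors. The 4 receptor subunits, 5 genes of cytosolic RNA sensing and 4 adaptors and kinases, called signalling genes from here on, were all detected, and their grouping was chosen with earlier results known. The median level was 27.4 ± 1.28 TPM over the signalling genes and 0.454 ± 0.151 TPM over the effectors, beside 28.5 ± 0.350 TPM over all detected genes and 0.163 ± 0.00862 TPM over all genes. On the log2(TPM + 1) scale the median of the signalling genes minus that of the effectors was 4.44 in replicate 1 and 4.14 in replicate 2, a mean of 4.29 ± 0.22. No test was made, since the smallest p that an exact sign test allows here is 0.5. With all 29 other members in place of the signalling genes, a set added after the values were seen, the difference was 3.90 and 3.67, a mean of 3.79 ± 0.16. The median level of these 29 was 19.0 ± 0.114 TPM. Over detected members alone, which leaves out the 11 low effectors by their level, the signalling difference was -0.19.

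The 4 interferon receptor genes were all detected. Ifnar1 and Ifnar2 encode the subunits of the type I interferon receptor. Ifnar1 had 2739 and 2631 counts (77.2 ± 0.519 CPM, 49.6 ± 0.0912 TPM). Ifnar2 had 790 and 775 counts (22.5 ± 0.486 CPM, 25.8 ± 0.337 TPM). Per length, Ifnar1 was 1.92 ± 0.0286 times Ifnar2. The chains of the interferon-gamma receptor were closer to each other. Ifngr1, which binds the ligand, had 1307 and 1188 counts (48.1 ± 1.96 TPM), and Ifngr2, its signalling partner, had 1465 and 1375 counts (41.4 ± 0.754 TPM). Per length Ifngr1 was 1.16 ± 0.0263 times Ifngr2, whereas by CPM it was 0.878 times Ifngr2, so their order depends on the scale.

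Ifnar2, Ifnar1 and Ifngr2 lie beside each other on chromosome 16 (GRCm38, 91372783 to 91565623), together with Il10rb and the predicted gene Gm21970. Il10rb, a receptor chain that the type III interferon and interleukin-10 receptors share, had 18.2 ± 0.399 CPM, and Gm21970 had no count. Exons of Gm21970 cover 9.46% of the exonic length of Ifnar2 on the same strand. Ifnlr1, the specific chain of the type III receptor, had 12.1 ± 0.0217 CPM, so chains of all 3 receptor types were detected. Of 10 interferon genes, the ligands, none was detected and 9 had no count. The exception with counts was Ifnk, an interferon of keratinocytes, with 18 and 14 counts (0.459 ± 0.0652 CPM). Ifna1 and Ifna5, both without a count, share 67.37% and 52.21% of short transcript windows with other genes, so their counts are uncertain.

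The kinases and factors that the receptors use were all detected, 5 of 5. Jak1, which serves every interferon receptor, had 89.2 ± 0.321 CPM, Jak2, used by the interferon-gamma receptor, 75.5 ± 1.00 CPM, and Tyk2, used by the type I receptor, 42.0 ± 0.156 CPM. Stat2, which carries the type I and type III signals to the nucleus, had 26.3 ± 0.721 CPM.

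Every member of the cytosolic RNA sensing group was detected, 5 of 5. Mavs, the mitochondrial adaptor on which both RNA helicase sensors converge, had 2440 and 2255 counts (67.5 ± 1.39 CPM). It was the highest of the group per length, at 77.0 ± 2.24 TPM. Ddx58, which encodes RIG-I, the sensor of RNA ends with a triphosphate, had 2935 and 2812 counts (82.6 ± 0.405 CPM, 44.7 ± 0.164 TPM). Ddx58 lies on chromosome 4 (GRCm38, 40203773 to 40239828). Ifih1, which encodes MDA5, the sensor of long double-stranded RNA, had 914 and 897 counts (26.0 ± 0.570 CPM, 12.2 ± 0.162 TPM). Dhx58, which encodes LGP2, a regulator of both sensors without signalling domains of its own, had 83 and 87 counts (2.45 ± 0.167 CPM, 2.85 ± 0.171 TPM). Trim25, a ubiquitin ligase that acts on RIG-I, had 1512 and 1363 counts (27.4 ± 1.28 TPM).

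The 3 helicases of the family thus stood far apart. Per length Ddx58 was 3.67 ± 0.0625 times Ifih1 and 15.7 ± 0.998 times Dhx58. Their libraries did not overlap in either comparison. Among 13 further partners and regulators of this route, 12 were detected (92.3%, against 50.6% of all protein-coding genes). By CPM the highest was Tax1bp1, an autophagy receptor that restrains MAVS signalling, at 269 ± 1.30 CPM. Pcbp2, which promotes MAVS degradation, followed at 249.5 ± 13.6 CPM, and Zc3hav1, the zinc finger antiviral protein ZAP, at 188.5 ± 4.65 CPM. On the TPM scale Tax1bp1 came after both, at 103 TPM against 183 TPM for Pcbp2 and 110 TPM for Zc3hav1. The lowest by CPM were Rnf135, a ubiquitin ligase for RIG-I, at 6.02 ± 0.175 CPM, and Tbkbp1, an adaptor of TBK1. Tbkbp1 was not detected (12 and 17 counts). Overlapping exons cover 36.2% of Pcbp2, so its level is uncertain.

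The Toll-like receptors were uneven. Tlr3, the endosomal receptor of double-stranded RNA, had the highest level of all 44 members on both scales. It had 4908 and 4461 counts (135 ± 4.35 CPM, 98.7 ± 4.04 TPM), and 84.8% of detected genes lay below it per length. Tlr3 lies on chromosome 8 (GRCm38, 45395665 to 45411080), where exons of Gm45542 on the opposite strand cover 7.32% of its exonic length. Tlr4, the receptor of bacterial lipopolysaccharide, had 1966 and 1844 counts (54.8 ± 0.555 CPM, 37.6 ± 0.703 TPM). Per length Tlr3 was 2.62 ± 0.0583 times Tlr4 and 12.5 ± 1.06 times Tlr2.

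The receptors of bacterial lipoproteins were lower. Tlr2, which pairs with TLR1 or TLR6, had 242 and 195 counts (7.94 ± 0.999 TPM), Tlr6 221 and 192 counts (6.07 ± 0.442 TPM), and Tlr1 111 and 112 counts. Tlr1 and Tlr6 are neighbours on chromosome 5 (GRCm38, 64924679 to 64960097). Of their 50-base windows, 15.4% of those of Tlr1 and 12.3% of those of Tlr6 occur in the other gene. Tlr5, the flagellin receptor, and Tlr7, a receptor of single-stranded RNA, had 2 and 1 counts each. Tlr9, the receptor of unmethylated CpG DNA, had no count. The detected set therefore held 1 of the 3 nucleic acid receptors on the list. The median of the 5 genes of cytosolic RNA sensing minus that of the 8 Toll-like receptors was 2.33 in replicate 1 and 2.28 in replicate 2 on the log2(TPM + 1) scale, although Tlr3 alone exceeded every cytosolic gene.

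Cofactors were present for some of these receptors. Of 21 further genes of Toll-like receptor recognition and signalling, 15 were detected (71.4%, against 50.6% of all protein-coding genes). Tollip, an adaptor that dampens signalling, had 171 ± 0.479 CPM, Irak1, the kinase downstream of MYD88, 157 and 151 CPM, and Map3k7, which encodes TAK1, 149 ± 2.66 CPM. Cd14, which hands lipopolysaccharide to the TLR4 complex, had 113 ± 1.03 CPM, and Ly96, which encodes the TLR4 subunit MD-2, had 5.27 ± 0.348 CPM. Ticam2, which encodes the TLR4 adaptor TRAM, had 1 and 0 counts, and exons of Tmed7 on the same strand cover 14.5% of its exonic length. Cd14, Ly96 and Ticam2 were picked out after their values were seen. Tlr8, Tlr11 and Tlr12 had no count.

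All 4 adaptors and kinases were detected. Myd88, the adaptor of most Toll-like receptors, had 612 and 551 counts (16.7 ± 0.653 CPM, 24.8 ± 1.18 TPM). Ticam1, which encodes TRIF, the adaptor of TLR3, had 590 and 542 counts (16.3 ± 0.404 CPM, 20.7 ± 0.693 TPM). Per length Myd88 was 1.19 ± 0.0170 times Ticam1. Exons on the opposite strand cover 11.3% of Myd88. Tbk1, the kinase that phosphorylates IRF3, had 2588 and 2460 counts (72.6 ± 0.0506 CPM, 70.8 ± 0.656 TPM). Ikbke, which encodes the related kinase IKK-epsilon, had 641 and 636 counts (18.4 ± 0.544 CPM, 7.77 ± 0.164 TPM). Per length Tbk1 was 9.12 ± 0.276 times Ikbke.

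Of 10 genes on the list for DNA sensing, 6 were detected (60%), beside all 5 members of cytosolic RNA sensing. The share over all protein-coding genes was 50.6%. Samhd1, a nucleotide hydrolase that limits viral DNA synthesis, had 52.1 ± 1.87 CPM, Tmem173, which encodes STING, 45.5 ± 0.983 CPM, and Polr3b, a subunit of the RNA polymerase that transcribes foreign DNA, 42.3 ± 1.08 CPM. Mb21d1, which encodes cGAS, the enzyme that makes the ligand of STING, had 2 and 4 counts and was picked out after its values were seen. It lies on chromosome 9 (GRCm38, 78430526 to 78443237). Aim2, a DNA sensor of the inflammasome, had 0 and 1 counts. Trex1 had no count, but all of its exonic length (100%) is overlapped on the same strand by Atrip, so its count is uncertain.

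Of the 8 interferon regulatory factors, 6 were detected. Irf3, the factor that TBK1 activates, was the highest, with 1731 and 1592 counts (47.8 ± 1.15 CPM, 52.9 ± 1.72 TPM). Irf9, the DNA-binding partner of STAT proteins in the type I response, had 955 and 912 counts (19.0 ± 0.114 TPM), Irf2, a repressor that competes with IRF1, 1325 and 1218 counts (18.9 ± 0.621 TPM), and Irf1, an activator induced by interferon-gamma, 656 and 681 counts (18.5 ± 0.979 TPM). Irf9 and Irf2, and likewise Irf2 and Irf1, overlapped between libraries per length, so these neighbours could not be ordered.

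Irf8, known mainly for its role in macrophage and dendritic cell development, was detected in this epithelial line, with 983 and 890 counts (26.9 ± 0.945 CPM, 14.6 ± 0.636 TPM). Irf8 lies on chromosome 8 (GRCm38, 120736358 to 120756694). Of the leukocyte markers measured in the same libraries, the myeloid genes Adgre1, Tyrobp and Lyz2 had no count, Aif1 had 4 and 2 counts, Csf1r had 0.474 ± 0.0443 CPM and Fcer1g, the marker that was detected, had 41 and 47 counts (5.53 ± 0.680 TPM). The part of such cells in the level of Irf8 was not tested. Irf7, the interferon-induced factor that amplifies transcription of alpha interferons, had 80 and 83 counts (2.35 ± 0.143 CPM, 2.37 ± 0.125 TPM). Per length Irf3 was 22.4 ± 1.91 times Irf7 and 3.64 ± 0.0403 times Irf8. Irf5, a factor of Toll-like receptor signalling in myeloid cells, had 20 and 13 counts, and Irf4, a factor of lymphocytes and plasma cells, had none. Outside the list, the IRF2-binding co-repressors Irf2bpl, Irf2bp2 and Irf2bp1 had 204 ± 10.3, 142 ± 5.04 and 67.8 ± 2.07 CPM.

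The effectors split into 4 detected genes and 11 under the minimum. Bst2, which encodes tetherin, a protein that holds budding virus particles at the membrane, had 465 and 392 counts (12.3 ± 1.05 CPM) and led the group per length at 52.0 ± 4.89 TPM. Eif2ak2, which encodes PKR, the kinase that stops translation on double-stranded RNA, had 1734 and 1661 counts (48.8 ± 0.232 CPM, 36.4 ± 0.139 TPM). Ifi35 had 439 and 410 counts (27.0 ± 0.586 TPM). Adar, which edits adenosine to inosine in double-stranded RNA, had 1527 and 1444 counts (42.7 ± 0.186 CPM, 20.1 ± 0.259 TPM). Exons on the opposite strand cover 16.8% of the length of Adar and the same share of Ifi35.

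The 11 effectors under the minimum held 144 counts in replicate 1 and 107 in replicate 2 together, while the 4 detected ones held 4165 and 3907. Ifit2, which with its relatives binds viral RNA or translation factors, came closest, with 38 and 27 counts (1.07 and 0.796 CPM), so replicate 1 was over the minimum and replicate 2 under it. Isg15, a ubiquitin-like protein that is attached to other proteins, had 30 and 14 counts (0.842 and 0.413 CPM). Isg15 lies on chromosome 4 (GRCm38, 156199424 to 156200818). Being short, it reached 3.17 ± 1.56 TPM. As a log2 ratio of CPM, its libraries lay further apart than those of any detected member.

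Zbp1, a sensor of left-handed nucleic acid that triggers cell death, had 31 and 11 counts (0.870 and 0.324 CPM). Mx1, an antiviral GTPase, had 11 and 20 counts, Usp18, which removes ISG15 and dampens receptor signalling, 9 and 14, and Rsad2, which encodes viperin, 12 and 6. Ifit1, which binds RNA with foreign cap structures, had 6 and 5 counts and Ifit3 had 1 and 1. The Oas genes encode synthetases of an antiviral second messenger. Oas1a had 5 and 5 counts, Oas2 0 and 3, and Oas3 1 and 1. Ifit3 and Oas1a share 51.2% and 57.6% of their 50-base windows with near-identical copies, so their counts are uncertain.

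The effector genes that lie in clusters were low as clusters. None of 6 Ifit genes on chromosome 19 (GRCm38, 34550694 to 34650009) was detected, and together they had 48 and 34 counts. None of the 9 measured genes of the Oas cluster on chromosome 5 (GRCm38, 120730333 to 120907521), namely 8 Oas genes and the antisense gene Gm43069, was detected, with 25 and 33 counts together. In contrast, 4 of 5 genes of the receptor cluster on chromosome 16 were detected, with 5651 and 5387 counts. RIG-I and the effectors under the minimum are both classed as interferon-stimulated, yet Ddx58 was 10.5 times Isg15 per length in replicate 1 and 21.5 times in replicate 2. The corresponding values for Eif2ak2 over Isg15 were 8.55 and 17.5. The divisor in both ratios, Isg15, rests on 30 and 14 counts.

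The wider set of interferon-induced genes also held detected and undetected members. Of 38 further interferon-induced genes measured, 18 were detected (47.4%), near the 50.6% of all protein-coding genes in the table. By CPM the highest was Rnf213, a large ubiquitin ligase, at 132 ± 19.1 CPM. Ifitm3, a membrane protein that blocks viral entry, followed at 89.4 ± 0.455 CPM, then its paralog Ifitm2 at 55.2 ± 1.11 CPM. Windows of Ifitm2 are shared to 48.5% with other transcripts. On the TPM scale Ifitm3 stood at 503 ± 6.87, Ifitm2 at 321 ± 9.22 and Rnf213 at 29.9 ± 4.05. Ifi44l, Ifit1bl1 and Ifitm1 had no count. Of 15 genes of the interferon-gamma GTPases and class II activators, 5 were detected (33.3%). Irgm1, a GTPase that acts on vacuoles of pathogens, had 27.4 ± 0.926 CPM, Gbp7, a guanylate-binding protein, 3.41 ± 0.0588 CPM, and Ciita, the activator of MHC class II genes, 2.92 and 2.48 CPM. Gbp6 and Tgtp1 were lowest by CPM, with 0 and 1 counts each. Of their windows, 70.65% and 81.23% are shared with other transcripts, so the counts of both are uncertain.

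All 7 genes that clear or edit the cell's own nucleic acids were detected. Skiv2l, a helicase of the cytoplasmic RNA exosome, had 75.3 ± 0.371 CPM, Pnpt1, a mitochondrial RNA exonuclease, 46.2 ± 1.26 CPM, and Rnaseh2c, a subunit of RNase H, 29.8 ± 0.378 CPM. Adarb1, an editing enzyme related to Adar, had 16.4 ± 0.172 CPM. Of 7 genes that restrain interferon signalling, 6 were detected (85.7%). The phosphatase genes Ptpn11, Ptpn1 and Ptpn2 had 218 ± 2.07, 65.3 ± 1.85 and 60.9 ± 0.0885 CPM. Socs3 had 7.65 ± 0.106 CPM and Socs1, an inhibitor of JAK kinases, had 27 and 27 counts and was not detected. Over these 11 lists, 80 of 132 measured genes were detected, beside 50.6% of all protein-coding genes in the table.

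**Figure D3:**
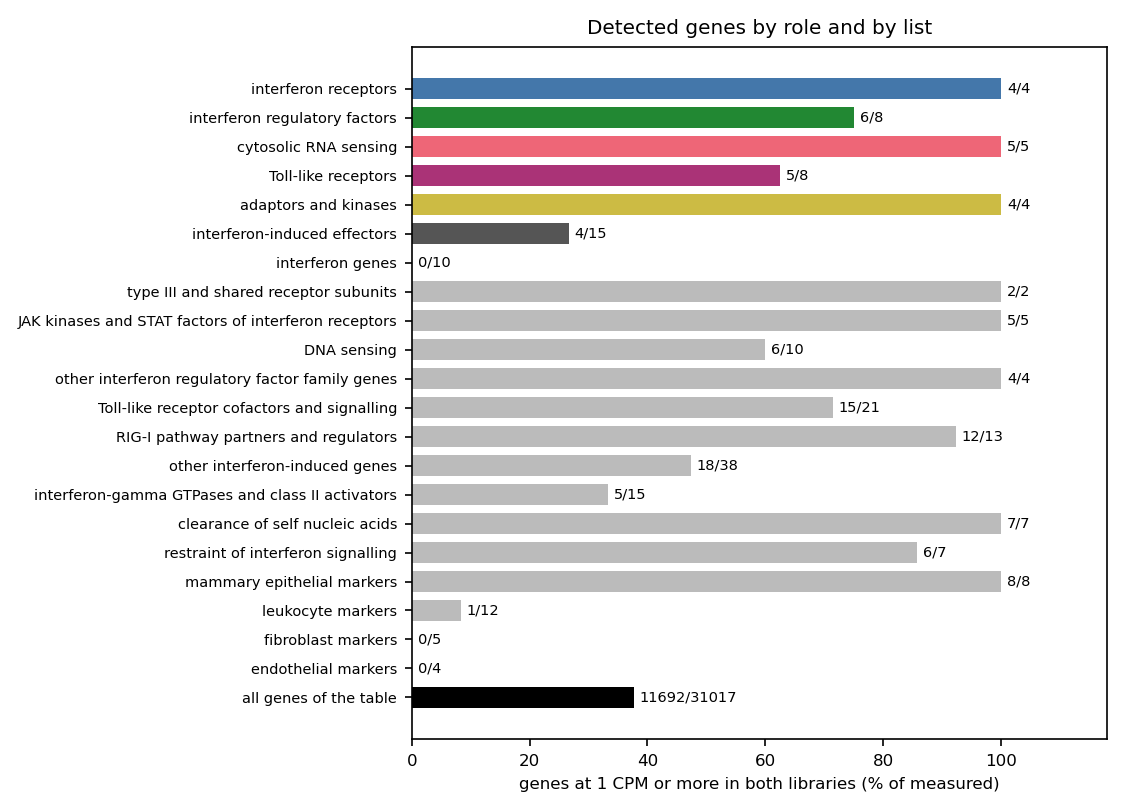
Percentage of measured genes detected (at least 1 CPM in each library) in each role group of the 44 members, in each further list and in all genes of the table. Interferon receptors, cytosolic RNA sensing, adaptors and kinases, JAK and STAT genes and nucleic acid clearance stand at 100%. Effectors stand at 26.7%, interferon genes at 0% and all genes at 37.7%. The share over all protein-coding genes, not drawn, was 50.6%.

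The members were then compared between the libraries, a comparison of replicate 2 with replicate 1 and not of conditions. Of the 44 members, 33 had enough counts to enter an exact two-sided binomial test over 13336 genes. The test called 1 member, against 8.12% of all genes tested (3.67% higher and 4.45% lower in replicate 2). This was Zbp1, with a log2 ratio of -1.42 (95% interval -2.56 to -0.39, adjusted p = 0.0424), which was lower in replicate 2. The binomial test covers counting error only. With edgeR's exact test, which adds a common dispersion fitted across all genes, 0 of 33 members were called, against 0.142% of all genes, and the adjusted p of Zbp1 was 0.48. That dispersion was estimated from the same 2 libraries that the test compares, so it already includes the differences between them. The small number of calls therefore does not show that the libraries are alike. At an unadjusted p under 0.05 the binomial test marked 3 of 33 members, against 19.8% of all genes tested, and edgeR's exact test marked 2, against 5.52%.

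The median log2 ratio of the 33 members was -0.03, and 12 of them were higher in replicate 2, against 49.3% of all genes tested. Over the detected members the log2 ratio ran from -0.24 for Tlr2 to 0.14 for Dhx58. Among members with 10 CPM or more the widest ratios were -0.17 for Bst2, 0.13 for Irf1 and -0.08 for Myd88. Isg15 had a log2 ratio of -1.03 (95% interval -2.06 to -0.07) with an adjusted p of 0.199 in the exact binomial test. Mx1 had one of 0.93 (95% interval -0.20 to 2.14), with an adjusted p of 0.377 in the same exact test. Outside the list, Rnf213 was higher in replicate 2 in both exact tests, with an adjusted p of 5.1e-20 by the binomial test and 0.0264 by edgeR's. Per length, 8 of the 27 neighbouring pairs in the order of detected members overlapped between libraries, so the other neighbours kept their order in both.

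**Figure D4:**
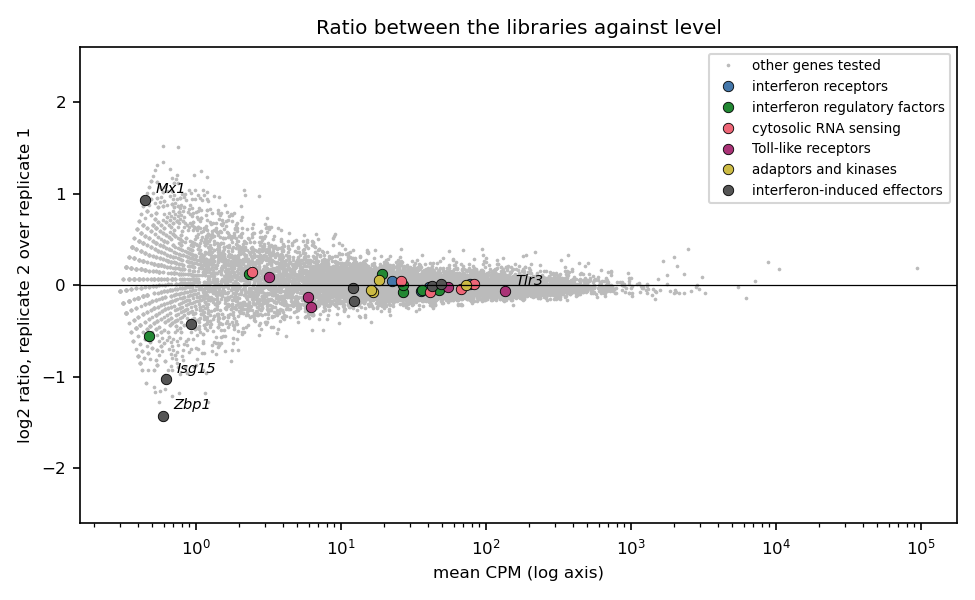
Log2 ratio of replicate 2 over replicate 1 against the mean level in CPM (log axis), for the tested members over the other genes tested in grey. Detected members lie between -0.24 and 0.14, and the wide ratios belong to members under the minimum, such as Zbp1 at -1.42 and Isg15 at -1.03.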

How the data were processed

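Polyadenylated RNA of TUBO cells was sequenced as stranded libraries, per the labels' protocols. The authors deposited raw counts, 1 row per gene symbol. The build mm10 and the tools STAR 2.7.9a, featureCounts, FastQC 0.11.9, Cell Ranger 3.0.0 and R 4.1.1 appear in the submitters' processing notes without their roles. Not given in the sources used here are the annotation release, the strand setting and how reads with several matches were treated, so counts of overlapping or near-identical genes are uncertain.

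CPM values used TMM factors (1.005 and 0.995) from edgeR 4.0.16 under R 4.3.3. Exonic lengths for TPM came from GENCODE M21 (GRCm38), where 98.1% of symbols had a single match. Libraries were compared with an exact two-sided binomial test on 13336 genes kept by edgeR's filter, with Benjamini-Hochberg adjustment over all of them at a threshold of 0.05, and with edgeR's exact test, whose common dispersion was estimated from both libraries taken as replicates of 1 group. The binomial procedure was also run on simulated data that held counting noise alone, so that run does not cover further variation between real libraries. Promoters came from RefSeq tables (GRCm38.p6). Shared sequence was sought as identical 50-base windows of transcripts.

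The members and gene lists were chosen with earlier results of these data known. All 44 members are named, with the 3 highest and 2 lowest genes by mean CPM of each further list (every gene of short lists) and the 3 members of 10 CPM or more with the largest ratio between libraries. Genes outside this rule are marked as picked after their values were seen. Oas1b and Mx2, on the lists, were not analysed here. Alternatives covered scaling (DESeq2 1.42.0 size factors, upper quartile, library totals), detection minimum, pseudocount, unit, motif and leaving out either library. Without molecular identifiers on the reads, an interval or floor reflects counting error alone. Some genes that the rule takes in are not reported here.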

Additional observations from a re-analysis of the deposited data

How the results depend on the processing

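Scaling by DESeq2 size factors, upper quartiles or library totals left every member's CPM within 1 SD (0 of 132 recalculated values moved further). Under detection minimums of 0.5 CPM, 5 CPM and 1 TPM, 29, 25 and 29 members were detected, beside 28. Members at 3 counts or fewer in both libraries numbered 7, beside 2 with none. The median log2 difference of signalling genes minus effectors, 4.29, became 4.74 in CPM, 5.66 with a pseudocount of 0.1, 2.57 with one of 5, 3.05 as a difference of means, 4.01 without Ifit3 and Oas1a and 3.79 with all other members in place of signalling genes (added after the data were seen), and reversed to -0.19 over detected members alone, which drops the 11 effectors under the minimum. That of cytosolic RNA sensing minus Toll-like receptors, 2.31, became 2.97 in CPM, 2.51 and 1.73 with pseudocounts of 0.1 and 5, 1.93 as means and 1.67 over detected members. The single member called between libraries became 0 with upper-quartile factors, with no filter on low counts and with edgeR's exact test. The adjusted p of Zbp1 ran from 0.0356 to 0.48 over the alternatives, and the cause was not tested. With a C required after the core, 8 members matched in place of 13, and 0.944% of all genes in place of 3.99%. In the 200 bases before the start alone, 9 of 37 members held the core (24.3%), against 2.65% of all genes. There it was held by 3 of 26 detected members and 6 of 11 others.

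Leaving out either library gave 28 to 29 detected members, 4 to 5 detected effectors, 2 to 3 members without a count, 80 to 81 of the further pathway genes, a summed level of 996 to 1014 CPM, and group differences of 4.14 to 4.44 and 2.28 to 2.33. The test between libraries cannot be repeated with a library left out, and DESeq2 gives no test with 1 library a side. No paired analysis was possible because the study has 1 group. Depth limits the effectors under the minimum, where Oas3, at 1 count per library, lies under the floor of 3 counts.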
